A study of Saccharomyces cerevisiae with 79 samples.

Results

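CGI121, PCC1 and TAD3 are tRNA modification genes with introns among the 308 targeted in this series, which were not searched for every such gene. They hold 4 of those introns: 1 each in CGI121 (YML036W) and PCC1 (YKR095W-A), and 2 in TAD3 (YLR316C), which were kept apart as row 1 and row 2. The members were chosen by gene identity, not by their values, though earlier results of these data were known when they were chosen. Newly made RNA of budding yeast was labelled by adding 4-thiouracil, a uracil analogue, to growing cultures, and the labelled RNA was pulled down and read from primers downstream of each intron (multiplexed primer extension sequencing). WT is strain BY4741, with 3 time courses from 0 to 990 s. In the prp2-1 strain the altered gene is PRP2, and its protein is a DEAH-box ATPase that readies the spliceosome for the first catalytic step; 1 course to 1320 s and a further 0 s library were used. WT_30 is also labelled BY4741 and has 2 courses to 3600 s. The labels say neither what the 30 stands for nor at what temperature any culture grew, and WT_30 received another kind of spike-in RNA, total labelled RNA of Schizosaccharomyces pombe instead of in vitro transcripts. Replicate courses are nowhere described as separate cultures, and p-values reflect only how far these courses differ, which may be technical.

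Cgi121 and Pcc1 are subunits of KEOPS, the conserved complex that makes threonylcarbamoyladenosine beside the anticodon of tRNAs. Its other yeast subunits are Kae1, Bud32 and Gon7. Tad3 pairs with Tad2 in the deaminase that turns adenosine into inosine at the wobble base of tRNA anticodons. Splicing removes an intron in 2 steps: the first cuts at the 5′ splice site and joins the intron to its branch adenosine, which leaves a lariat intermediate, and the second joins the exons and frees the lariat. An unspliced read here can therefore come from RNA before the first step or from the lariat intermediate, and the tables count lariat reads apart.

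The introns are printed because they differ in length, in branch sequence and in the distance from branch to 3′ splice site. They were read from build R64 of the RefSeq genome on the coding strand, 5′ to 3′. Capitals mark the first 6 bases, the 7 bases that best match TACTAAC (the last match where several tied, searched on the coding strand only) and the last 3 bases.
CGI121 intron, chrXIII:206098-206203, + strand: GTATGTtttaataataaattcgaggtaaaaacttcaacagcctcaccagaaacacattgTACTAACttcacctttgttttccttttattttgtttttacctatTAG
PCC1 intron, chrXI:625902-625976, + strand: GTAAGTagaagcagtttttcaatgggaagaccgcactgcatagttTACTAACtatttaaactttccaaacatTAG
TAD3 first intron, chrXII:766182-766249, - strand: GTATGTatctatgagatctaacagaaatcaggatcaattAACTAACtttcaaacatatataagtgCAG
TAD3 second intron, chrXII:766074-766129, - strand: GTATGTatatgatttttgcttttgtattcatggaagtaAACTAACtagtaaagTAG

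All 4 introns interrupt coding sequence and are shorter than the panel median. They measure 106, 75, 68 and 56 nt, against a median of 136.5 nt over the 278 panel introns that could be read from the genome. Only 3 of those 278 are shorter than the second TAD3 intron. CGI121 and both TAD3 introns begin with GTATGT, as do 73.0% of the 278, while the PCC1 intron begins with GTAAGT, which differs at 1 base. For the branch region, the CGI121 and PCC1 introns hold TACTAAC, as do 82.4% of the 278 panel introns. The best match to it in both introns of TAD3 has 1 mismatch and reads AACTAAC. Downstream of the branch adenosine lie 41 nt in CGI121, 24 nt in PCC1, and 23 and 12 nt in the first and second TAD3 intron, against a median of 33 nt. The second TAD3 intron is among the 4.32% with the branch this close to the 3′ splice site. The exon between the TAD3 introns is 52 nt long. The tables number the TAD3 rows without saying which intron is which, so the row values below are not tied to a printed TAD3 sequence.

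Depth set how far single libraries could be read. Labelled libraries held 929102 to 8128746 reads on targeted introns in WT, 320553 to 4430240 in prp2-1 and 4128286 to 11603214 in WT_30. The members are sparsely read targets. Over 150 to 990 s they drew 77.5 (CGI121), 102 (PCC1), 116 (TAD3 row 1) and 33.2 (TAD3 row 2) reads per 1000000 reads on targeted introns (RPM) in WT, against a median of 797 over all 308. Reads per target also depend on its primer, so these values are not RNA levels. Counts come from amplified reads, so intervals given below for shares cover counting error only.

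In WT, CGI121 stayed unspliced far longer than the other members. In WT at 90 s, 91.9%, 93.1% and 90.1% of its reads were unspliced in courses 1, 2 and 3, on 197, 217 and 304 reads. At 150 s the shares were 83.3%, 91.1% and 83.6%. They were 79.8%, 49.2% and 63.5% at 300 s. By 990 s they stood at 58.6%, 54.9% and 41.6%. All 3 courses declined, and the values at 990 s lay below every value from 90 to 210 s. The lowest value was 26.3%, in course 3 at 720 s. The course 2 library at 300 s, with 59 CGI121 reads, was the lowest of the 3 at that time for every member.

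**Figure D1:**
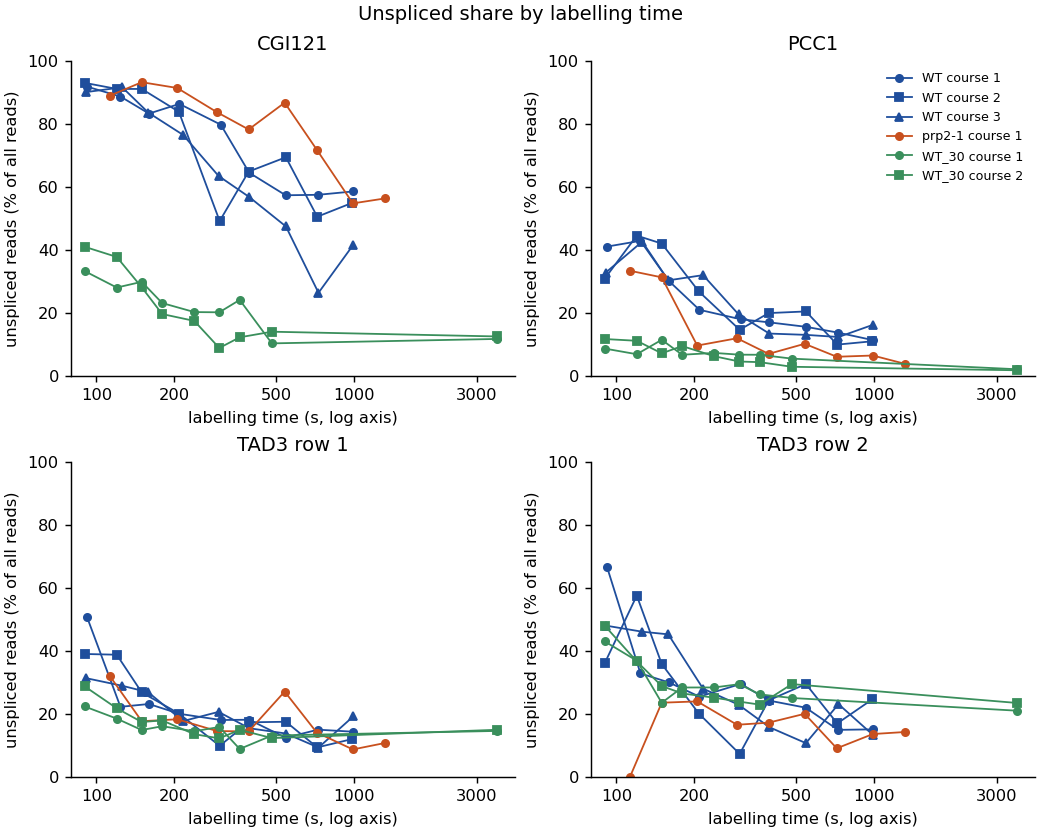
Unspliced reads as a percent of all reads of the intron (vertical axis) against labelling time in seconds (log axis), one panel per intron row; each line is 1 time course. CGI121 lies between 90.1% and 93.1% at 90 s in WT and never above 41.0% in WT_30, while for TAD3 the lines of WT and WT_30 lie closer together.

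PCC1 and TAD3 were spliced sooner. The unspliced share of PCC1 was 41.0%, 30.8% and 32.8% at 90 s in WT courses 1 to 3, and 11.3%, 10.9% and 16.2% at 990 s. TAD3 row 1 went from 50.7%, 39.0% and 31.4% to 14.3%, 12.0% and 19.2%. TAD3 row 2 went from 66.7%, 36.0% and 48.0%, on only 12, 25 and 102 reads, to 15.1%, 24.6% and 13.2%. In each of these 3 rows the 990 s values lay below all 3 values at 90 s. Over 150 to 990 s the order in WT was CGI121 (70.4% ± 7.38), TAD3 row 2 (24.4% ± 0.709), PCC1 (17.8% ± 0.428) and TAD3 row 1 (17.2% ± 0.842; SD, n = 3). PCC1 and TAD3 row 1 overlapped between courses and the other neighbours did not. CGI121 ranked 13 from the highest of 282 introns, and the other rows ranked 56 (TAD3 row 2), 70 (PCC1) and 74 (TAD3 row 1). The median intron had 7.37% unspliced reads.

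The decline with labelling time was tested by summing reads over 150, 210 and 300 s (early) and over 540, 720 and 990 s (late) in each WT course. The ratio of unspliced to remaining reads was compared with the quasi-likelihood test of edgeR, and p-values were adjusted by Benjamini-Hochberg over 275 introns. All 4 rows fell. Background for this count is high, since 92.4% of the tested introns were called, 90.9% lower and 1.45% higher, with a median log2 change of -1.52. For CGI121 the early shares were 83.3%, 86.5% and 76.5% and the late shares 58.0%, 56.2% and 40.5%, without overlap, and the log2 change in the ratio was -2.14 ± 0.32 (SE, adjusted p = 4.5e-05). PCC1 fell from 22.4%, 33.3% and 25.8% to 12.4%, 11.8% and 13.7%, a log2 change of -1.35 ± 0.24 (adjusted p = 1.6e-04). TAD3 row 1 went from 20.4%, 21.7% and 22.0% to 14.4%, 11.7% and 13.8%, a log2 change of -0.83 ± 0.21 (adjusted p = 0.0019). TAD3 row 2 went from 28.5%, 26.3% and 33.5% to 16.1%, 21.9% and 13.2%, a log2 change of -0.999 ± 0.29 (adjusted p = 0.0055). That last call was lost without WT course 3 (log2 change -0.66, adjusted p = 0.065). Relative to the median intron, CGI121 changed by -0.62 and the others by 0.17 (PCC1), 0.68 (TAD3 row 1) and 0.52 (TAD3 row 2) on the log2 scale; with factors that centre each read state 14 introns were called lower and 33 higher, none of the 4 rows passed and the last 3 had positive signs.

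The remaining reads are not all spliced. The deposited splicing index gives the spliced reads themselves, and over 150 to 990 s in WT a further 5.53% ± 0.202 of CGI121 reads, 4.32% ± 0.187 of PCC1 reads, 11.8% ± 2.13 of TAD3 row 1 reads and 8.23% ± 0.838 of TAD3 row 2 reads were neither counted as unspliced nor as spliced (SD, n = 3). At 90 s in WT course 1, 4 of the 197 CGI121 reads were spliced. With spliced reads taken from the index, a choice made after seeing the data, the late against early changes became -2.79 for CGI121, -1.50 for PCC1, -1.05 for TAD3 row 1 and -1.43 for TAD3 row 2, and all 4 stayed past the threshold.

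Scaled to the spike-in, labelled CGI121 RNA in both states was higher at 990 s than at 90 s in all 3 WT courses. Unspliced reads per 1000 spike-in reads were 27.0, 13.1 and 14.5 at 90 s in courses 1 to 3, then 97.7, 34.6 and 66.4 at 300 s, and 123, 174 and 69.3 at 990 s. Their growth was not steady. At 390 s they stood at 138 and 100.4 in courses 1 and 3, above the 990 s values. In course 2 the 390 s value was 71.0, below that at 990 s. The remaining reads were 2.39, 0.976 and 1.59 at 90 s, 24.8, 35.8 and 38.2 at 300 s, and 86.8, 143 and 97.5 at 990 s. So unspliced reads exceeded the rest in all 3 courses at 90 s, and the courses were divided at 300 and 990 s. For PCC1 the unspliced reads were 4.77, 1.30 and 5.24 at 90 s and 62.0, 97.5 and 73.4 at 990 s, and the remaining reads went from 6.86, 2.93 and 10.8 to 487, 795 and 380. In PCC1 the remaining reads exceeded the unspliced ones at both times in every course.

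**Figure D2:**
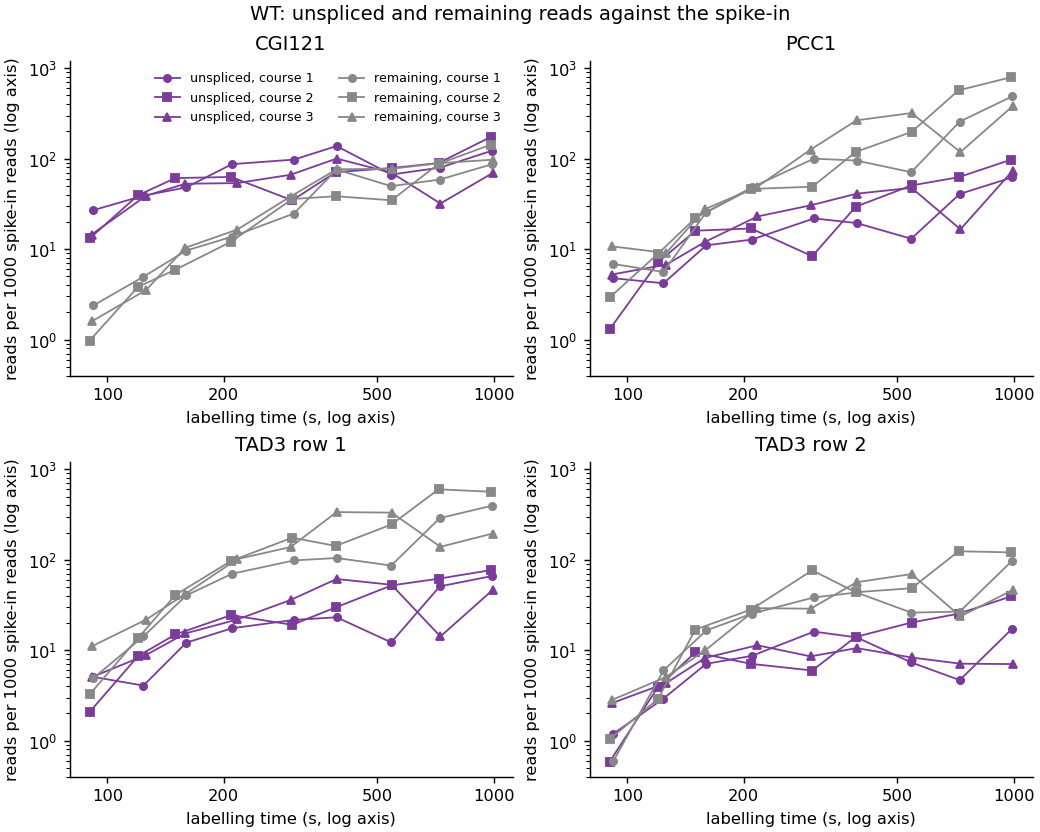
WT reads per 1000 spike-in reads (log axis) against labelling time in seconds (log axis); purple lines are unspliced reads and grey lines the remaining reads, one line per time course. In CGI121 the purple lines start far above the grey ones and the lines run close by 990 s, while in PCC1 and both TAD3 rows the grey lines lie above the purple ones from 150 s on.

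An apparent lifetime of the unspliced state was fitted to each course, with constant synthesis, no decay and no unlabelled background assumed. It covers both steps, since lariat reads count as unspliced. In WT it was 484 s ± 149 for CGI121, 89.8 s ± 5.25 for TAD3 row 2, 71.4 s ± 0.967 for PCC1 and 63.3 s ± 3.34 for TAD3 row 1 (SD, n = 3). The median over 301 introns was 28.9 s. The members' ranges over the 3 courses did not overlap each other, the nearest being PCC1 (70.3 to 72.0 s) and TAD3 row 1 (59.7 to 66.2 s). In the prp2-1 course the values were 938 s for CGI121, 71.0 s for TAD3 row 1, 65.3 s for TAD3 row 2 and 40.9 s for PCC1. In WT_30 the order differed: TAD3 row 2 had the longest lifetime of the 4 rows, 123 s in both courses, followed by CGI121 (58.9 and 70.8 s), TAD3 row 1 (47.2 and 52.4 s) and PCC1 (15.9 and 18.2 s). TAD3 row 2 thus lay above its WT range and the other rows below theirs, which was not tested. Each fit used the times of its own series, up to 990 s in WT, 1320 s in prp2-1 and 3600 s in WT_30. Lifetimes of different series are therefore not like for like. Over the shared times of 90 to 300 s the unspliced shares of TAD3 row 2 overlapped, at 32.0% and 34.2% in WT_30 and 30.9%, 34.7% and 40.8% in WT.

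Most unspliced CGI121 reads were lariat intermediates. Over 150 to 990 s in WT, 1770 of 2042, 1629 of 1894 and 1188 of 1539 unspliced reads in courses 1 to 3 were lariat reads, or 83.3% ± 5.29 (SD, n = 3). The median intron had 18.4%, and CGI121 ranked 5 from the highest of 259. A further 157, 192 and 275 reads ended between branch point and 3′ splice site, where both kinds of RNA give reads. Only 115, 73 and 76 unspliced reads belonged to neither class. In PCC1 the reverse held: 59 of 487, 70 of 700 and 89 of 646 unspliced reads were lariat reads (12.0% ± 1.89), and 417, 623 and 544 were in neither class. TAD3 row 1 had 108 of 552, 139 of 730 and 82 of 728 lariat reads (16.6% ± 4.65). TAD3 row 2 had 5 of 260, 5 of 329 and 1 of 225, and no read between branch point and 3′ splice site in any WT or prp2-1 library used. With so few lariat reads it fell below the minimum of 5 for the lariat tests.

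**Figure D3:**
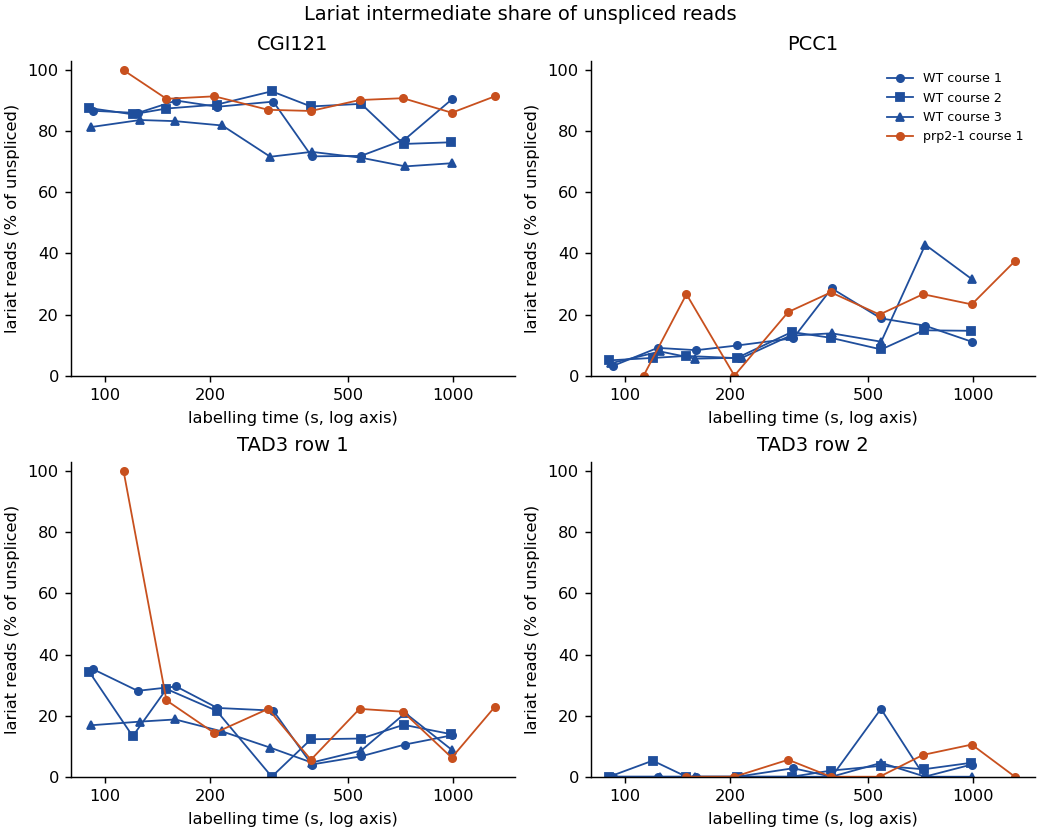
Lariat reads as a percent of unspliced reads (vertical axis) against labelling time in seconds (log axis) in WT and prp2-1, one line per time course. CGI121 lies between 68.5% and 100%, and TAD3 row 2 lies at 22.2% or below; the 100% point of TAD3 row 1 in prp2-1 rests on 15 unspliced reads.

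Lariat shares were then compared between late and early WT windows. No intron of 248 was called (0% background) in the same test; 39 had an unadjusted p under 0.05 and DESeq2 called 3. In CGI121 the early shares were 89.2%, 88.1% and 80.3% and the late shares 82.3%, 79.3% and 70.5%, lower in 3 of 3 courses. Its log2 change in lariat to other unspliced reads was -0.85 ± 0.37 (adjusted p = 0.30). PCC1 had 10.03%, 6.35% and 8.18% early and 13.8%, 13.2% and 21.6% late, without overlap, with a log2 change of 1.10 ± 0.37 (adjusted p = 0.24). TAD3 row 1 had 25.0%, 24.0% and 14.7% early and 11.8%, 14.7% and 10% late, with a log2 change of -0.94 ± 0.37 (adjusted p = 0.30). Early and late windows come from the same courses, and with the course as a block 44 introns were called, 26 lower and 18 higher. In that fit CGI121 (adjusted p = 0.0098), PCC1 (0.026) and TAD3 row 1 (0.038) all passed. Without reads that end past the branch point the CGI121 change was 0.37 (adjusted p = 0.54), with the opposite sign. Those reads made up 9.10% ± 4.87 of its unspliced reads early and 19.2% ± 6.55 late (SD, n = 3).

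The 3 non-member introns closest to each member over the 21 WT libraries of 150 to 990 s were found by the mean absolute difference in log2 unspliced ratio plus that in log2 lariat ratio, among 259 introns. Nearest to CGI121 were SUS1 row 2 (summed difference 1.71), NOG2 (2.11) and RCF3 (2.20). SUS1 row 2 had 67.9% unspliced reads, of which 82.0% were lariat. PCC1 lay nearest to PTC7 (1.39), MRX20 (1.55) and ECM33 (1.62), and TAD3 row 1 to ARF2 (1.14), COF1 (1.28) and PTC7 (1.41). TAD3 row 2 was not ranked.

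The prp2-1 course was set against the WT courses to compare each intron's unspliced state. With 1 mutant course, the spread in the test came from the WT courses alone, and the allele cannot be told apart from variation between courses. Summing weighs each time by its depth. Libraries of 540 to 990 s held 8426516 of the 12772836 targeted reads summed over 150 to 990 s in prp2-1. In WT courses 1 to 3 they held 15862905 of 30751062, 17720684 of 34471724 and 15285973 of 35372390. The summed prp2-1 shares thus rest more on late times, and what this did to the changes was not tested. For CGI121 the unspliced share was 93.3% (95% Wilson interval 88.1 to 96.3) at 150 s and 83.7% at 300 s, on 149 and 166 reads. It was 86.8% at 540 s and 54.8% at 990 s, on 189 and 210 reads, and 56.3% at the last time of 1320 s, on 229 reads. The share was lowest in the last libraries. Over 150 to 300 s the CGI121 share was 89.7%, against 83.3%, 86.5% and 76.5% in the WT courses. Over 540 to 990 s it was 70.6%, against 58.0%, 56.2% and 40.5%. Summed over 150 to 990 s, 79.8% of its reads were unspliced (77.5 to 81.9), above 75.6%, 73.8% and 62.0% in the WT courses. The log2 change in the ratio, 0.71 ± 0.34, did not pass (edgeR quasi-likelihood test, adjusted p = 0.11). PCC1 was lower in the prp2-1 course, at 8.39% (7.18 to 9.79) against 17.4%, 18.2% and 17.8%, a log2 change of -1.24 ± 0.26 (adjusted p = 0.0073). TAD3 row 2 was also lower in that course, at 15.6% (13.0 to 18.6) against 25.2%, 24.3% and 23.8%, a log2 change of -0.81 ± 0.29 (adjusted p = 0.046). TAD3 row 1 had 14.5% (12.8 to 16.4) against 17.8%, 16.2% and 17.5%, a change of -0.29 ± 0.26 that did not pass (adjusted p = 0.37). In this comparison of 1 course with 3, 2 of 4 rows were called lower, where 30.7% of 283 tested introns were called lower and 2.12% higher, with a median log2 change of -0.62.

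By window, PCC1 was lower in prp2-1 early (13.7% against 22.4%, 33.3% and 25.8% in WT) and late (6.99% against 12.4%, 11.8% and 13.7%). TAD3 row 2 had 19.8% against 28.5%, 26.3% and 33.5% early. Late it had 13.1% against 16.1%, 21.9% and 13.2%, the last close by. TAD3 row 1 was lower early and inside the WT range late. Relative to the median intron, the summed changes were 1.33 (CGI121), -0.62 (PCC1), 0.34 (TAD3 row 1) and -0.19 (TAD3 row 2). Leaving out a WT course moved the p-values more than the log2 changes. Without WT course 2, 4 introns in all were called and neither PCC1 (-1.22, adjusted p = 0.087) nor TAD3 row 2 (-0.81, adjusted p = 0.13) was among them. PCC1 stayed past the threshold without course 1 (-1.26, adjusted p = 0.011) or course 3 (-1.24, adjusted p = 0.049). TAD3 row 2 also missed the threshold with DESeq2 (0.057), without a filter (0.056), with centred factors (0.13), without WT course 3 (0.061) and with index-based spliced reads (0.069).

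Lariat reads made up 89.5% (87.5 to 91.2) of unspliced CGI121 reads in prp2-1 over 150 to 990 s, against 86.7%, 86.0% and 77.2% in WT. For PCC1 they made up 21.9% (16.0 to 29.3), on 146 unspliced reads, against 12.1%, 10% and 13.8%. The mutant value lay above the WT courses in both genes. Without reads that end past the branch point it did so in PCC1 (25.8% against 12.4%, 10.1% and 14.1%) but not in CGI121 (95.3% against 93.9%, 95.7% and 94.0%), whose log2 change was then 0.22 (adjusted p = 0.84). For TAD3 row 1 it was 17.3% (12.7 to 23.1), inside the WT range of 11.3% to 19.6%. None of the 3 passed the test (log2 changes 0.73 ± 0.48, 1.06 ± 0.54 and 0.11 ± 0.56, adjusted p = 0.43, 0.27 and 0.91), where 4.6% of 261 introns were called, 3.45% lower and 1.15% higher.

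**Figure D4:**
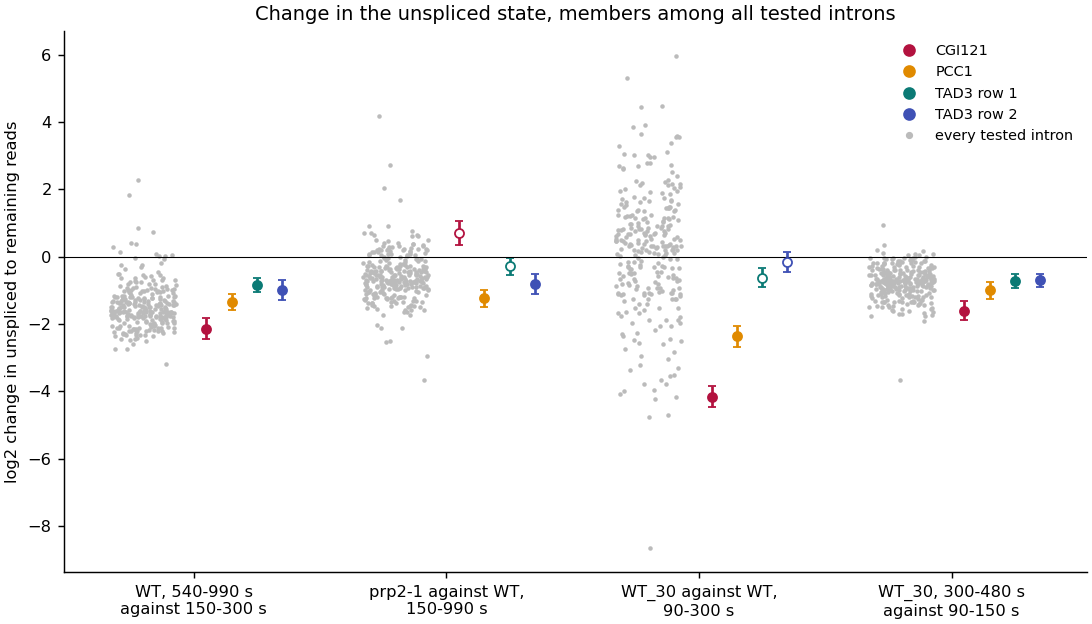
Log2 change in unspliced to remaining reads (vertical axis) in 4 comparisons; grey points are all tested introns, coloured points the members with their SE, filled where the adjusted p was under 0.05. CGI121 and PCC1 sit at -4.16 and -2.37 in WT_30 against WT; in WT late against early the members are all below 0, but with factors that centre each read state PCC1 and both TAD3 rows turn positive.

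WT_30 was set against WT at the times both have, 90, 120, 150 and 300 s. Among the 4 rows CGI121 differed most. Its unspliced share in WT_30 was 33.3% and 41.0% at 90 s in courses 1 and 2, then 29.8% and 28.1% at 150 s, 20.1% and 8.79% at 300 s, and 10.3% and 14.0% at 480 s. At 3600 s it was 11.7% and 12.5%. Every WT_30 value lay below every WT value at the shared times. Over those times the share was 25.8% and 25.3%, against 84.3%, 89.7% and 83.5% in WT, and the log2 change in the ratio was -4.16 ± 0.32 (edgeR quasi-likelihood test, adjusted p = 2.5e-09). PCC1 had 7.98% and 8.07% against 25.7%, 39.7% and 28.8%, a log2 change of -2.37 ± 0.31 (adjusted p = 1.8e-06). TAD3 row 1 had 17.0% and 19.0% against 22.3%, 27.5% and 26.1%, without overlap, but its change of -0.62 ± 0.29 did not pass (adjusted p = 0.062). It passed without WT course 1 (adjusted p = 0.042) or course 2 (0.044), and with factors that centre each read state (0.0023). TAD3 row 2, the row with the highest unspliced share in WT_30, overlapped, at 32.0% and 34.2% against 30.9%, 34.7% and 40.8% (log2 change -0.15 ± 0.30, adjusted p = 0.66). Thus 2 of 4 rows were called lower, where 65.8% of 284 introns were called, 28.2% lower and 37.7% higher, with a median of 0.32. This comparison and that of prp2-1 share the WT courses.

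Background reads were a larger part of the CGI121 reads in both WT_30 courses than in any WT course. At 90 s, reads at the 0 s level per spike-in read made up 45.8% and 18.4% of CGI121 reads in WT_30 and 3.13%, 8.75% and 4.71% in WT. For PCC1 they made up 68.0% and 52.0% in WT_30 and 24.6%, 56.6% and 15.4% in WT, which overlap. The TAD3 rows overlapped too, with 36.0% and 19.2% (row 1) and 20.8% and 12.8% (row 2) in WT_30 and 7.15%, 28.9% and 13.4% (row 1) and 11.4%, 52.2% and 11.7% (row 2) in WT. The 0 s libraries of WT_30 had 8.16% and 4.94% unspliced CGI121 reads on 564 and 405 reads, and those of WT 66.7%, 56.2% and 66.7% on 9, 32 and 12 reads. After the 0 s reads were subtracted, the mean share over 90 to 300 s was 27.9% in WT_30 and 86.4% in WT for CGI121, and 10.02% and 33.1% for PCC1. The part played by the kind of spike-in RNA was not tested.

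Within WT_30, reads at 300, 360 and 480 s were compared with those at 90, 120 and 150 s. All 4 rows were called lower, where 65.6% of 282 introns were called lower and 0% higher, with a median log2 change of -0.73. CGI121 went from 29.9% and 36.3% to 17.3% and 11.2% (log2 change -1.60 ± 0.28, adjusted p = 0.0040). PCC1 went from 8.76% and 10.2% to 6.22% and 3.95% (-0.999 ± 0.25, adjusted p = 0.012). TAD3 row 1 went from 17.6% and 23.1% to 13.6% and 13.3% (-0.71 ± 0.21, adjusted p = 0.020), and row 2 from 33.1% and 39.4% to 27.3% and 24.5% (-0.70 ± 0.20, adjusted p = 0.017), all by the quasi-likelihood test. With factors that centre each read state 3 introns were called lower and 2 higher, none of the 4 rows passed, and the sign of TAD3 row 2 turned (0.00).

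All reads of a target, unspliced or not, were compared as a share of the library with TMM factors. Against WT, WT_30 had more reads on PCC1 (log2 change 2.74 ± 0.18, adjusted p = 3.3e-07), TAD3 row 2 (2.36 ± 0.23, adjusted p = 4.2e-06) and TAD3 row 1 (0.67 ± 0.18, adjusted p = 0.0065), where 71.8% of 284 introns were called, 37.3% higher and 34.5% lower. CGI121 did not pass (0.12 ± 0.21, adjusted p = 0.62). The TAD3 rows belong to 1 transcript, yet they changed by 2.36 and 0.67. A change in reads on a target therefore need not be a change in its RNA. The call of TAD3 row 1 was lost without WT_30 course 2 (adjusted p = 0.069). In prp2-1 no row passed, where 66.5% of 284 introns were called, 34.5% lower and 32% higher; TAD3 row 1 came nearest (-0.68 ± 0.26, adjusted p = 0.065). DESeq2 called it lower (adjusted p = 0.021), as did the fit without WT course 1 (0.047). The scaling set the direction of these calls: library totals without TMM gave 53 introns lower and 129 higher, and spike-in reads as the library size gave 276 lower and 1 higher. With spike-in reads all 4 rows passed, with log2 changes of -4.34 (CGI121, adjusted p = 2.0e-05), -4.34 (PCC1, 3.8e-05), -4.86 (TAD3 row 1, 3.2e-05) and -4.16 (TAD3 row 2, 7.3e-05), beside a median of -4.18.

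In WT the CGI121 share of the library fell with labelling time. It took 134, 120 and 87.8 RPM over 150 to 300 s and 41.2, 45.1 and 49.8 over 540 to 990 s, without overlap, with a log2 change of -1.30 ± 0.21 (adjusted p = 0.0079), where 8.73% of 275 introns were called, 4.73% lower and 4% higher. The call was lost without WT course 1 (adjusted p = 0.067) or course 2 (0.079). Scaled to spike-in reads the change was 1.12, with a median of 2.40 over all introns, so labelled CGI121 RNA grew less than that of the median target. TAD3 row 2 had 52.7, 54.8 and 32.1 RPM early and 16.0, 29.1 and 20.4 late (-1.07 ± 0.30, adjusted p = 0.055). With the course as a block it passed (adjusted p = 2.0e-05), where 131 of 275 introns were called, 69 lower and 62 higher. DESeq2 called it too (adjusted p = 0.0057), where 68 of 274 introns were called, 38 lower and 30 higher. PCC1 (0.33 ± 0.21) and TAD3 row 1 (-0.31 ± 0.21) did not pass. With spike-in scaling all 4 rows rose.

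**Figure D5:**
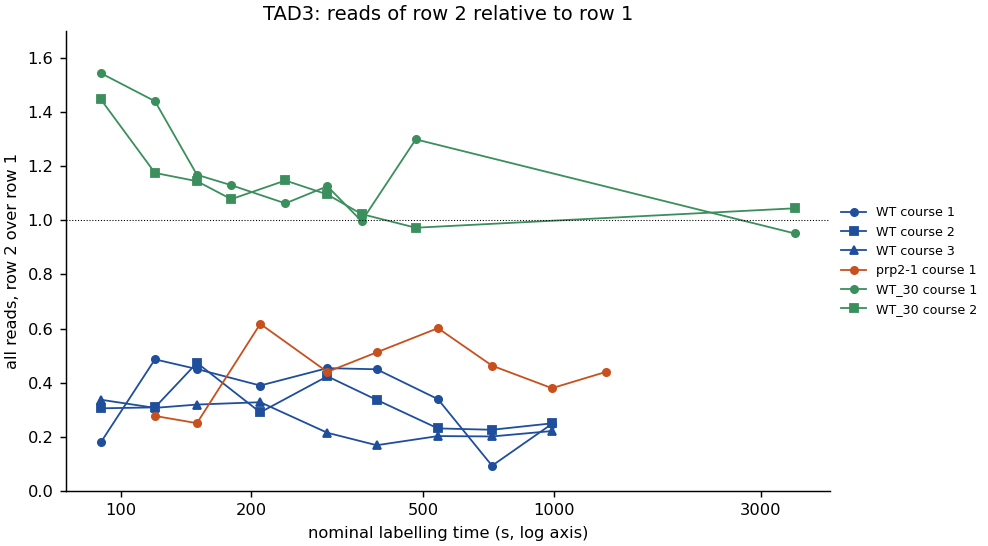
All reads of TAD3 row 2 divided by those of row 1 (vertical axis) against nominal labelling time in seconds (log axis), one line per time course. The ratio lies between 0.952 and 1.54 in WT_30, and at 0.617 or below in every WT and prp2-1 library.

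The TAD3 rows belong to 1 transcript, yet their reads did not keep 1 ratio. Row 2 had a median of 0.307 reads for each read of row 1 over 27 labelled WT libraries (0.0925 to 0.486), 0.440 over 9 prp2-1 libraries (0.25 to 0.617) and 1.13 over 18 WT_30 libraries (0.952 to 1.54). The WT_30 libraries did not overlap the others, while WT and prp2-1 did. The unspliced log2 ratio of row 2 exceeded that of row 1 in all 3 WT courses over 150 to 990 s, by 0.64, 0.73 and 0.56, and by 0.12 in prp2-1. Over 90 to 300 s it did so by 0.63, 0.48 and 0.96 in WT and by 1.20 and 1.14 in WT_30. The sign was not the same in every window: over 540 to 990 s the difference was 0.21, 1.08 and -0.07 in WT and -0.08 in prp2-1, and at 300 s it was -0.39 in WT course 2. These differences were not tested.

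Of a list of 7 further genes of tRNA modification and production (the KEOPS genes BUD32, KAE1 and GON7, the TAD3 partner TAD2, and TFC3, MAF1 and POP8), 3 are in the tables. TFC3 encodes a subunit of the RNA polymerase III factor TFIIIC, MAF1 the repressor of that polymerase, and POP8 a protein of RNase P and RNase MRP. All 3 fell late against early in WT, by log2 changes of -1.37 (TFC3), -1.45 (MAF1) and -1.79 (POP8), the median of -1.45 standing beside -1.52 for all introns, of which 90.9% were called lower. In prp2-1 none of the 3 passed (-0.60, -0.67 and -0.76), where 32.9% of introns were called in either direction. In WT_30 against WT, MAF1 (2.40, adjusted p = 6.8e-05) and POP8 (0.95, adjusted p = 0.011) were higher, where 37.7% of introns were, and TFC3 (0.24) did not pass, so that neither called gene of the list moved as CGI121 and PCC1 did.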

How the data were processed

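Whole-number read counts for 308 introns and 5 spike-in RNAs were deposited as raw tables, per the file headers. The submitters' processing notes name the aligner STAR 2.7.2b and genome R64; how reads were assigned to introns is not given in the sources used here. The deposited splicing index is a ratio, per the file headers; all reads divided by 1 plus the index gave whole spliced reads in 11171 of 11171 cells (tolerance 0.001). WT_30 has no lariat table used here.

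Of 79 samples 61 were used. Beyond the first 11, prp2-1 column numbers and sample titles disagree, so 18 columns in each of 10 tables (180) were not used, and the planned comparison of courses became 3 against 1. The time course was the replicate. Counts summed per course entered edgeR 4.0.16 (quasi-likelihood test, Benjamini-Hochberg, threshold 0.05): for read states, the interaction of state and group with a term per course or window, without TMM; for all reads, TMM. Introns needed a mean of 100 reads in tests of all reads, and 20 unspliced reads as well in tests of unspliced to remaining reads. Lariat tests needed a mean of 20 unspliced reads and 5 lariat reads. Background subtraction scaled 0 s reads by spike-in reads. Lifetimes are 1/k from an unspliced share of (1 - exp(-kt))/(kt), using every labelled library. Fits were also run on simulated counts. These were drawn without the correlation between windows of a course given below, and do not bear on it. Alternatives used DESeq2 1.42.0, limma 3.58.1, other filters and scalings, and omitted courses. For each WT course, deviations in its late window and in its early window correlated at 0.648, 0.374 and 0.618 (unspliced ratio), 0.448, 0.349 and 0.502 (lariat ratio) and 0.674, 0.646 and 0.754 (all reads), and the windows share a course by the labels, so they are pairs.

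All rows of the 3 genes are described. The members and the tRNA gene list were chosen with earlier results of these data known.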

Additional observations from a re-analysis of the deposited data

Results flagged for a closer look

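With reads summed over 90 to 150 s, the RPM of CGI121 and TAD3 row 1 moved in opposite directions in WT and WT_30 between that window and 300 s. CGI121 took fewer RPM at 300 s than over 90 to 150 s in 3 of 3 WT courses (mean difference -98.9) and more in 2 of 2 WT_30 courses (mean difference 95.4). TAD3 row 1 likewise took fewer in 3 of 3 WT courses (-14.7) and more in 2 of 2 WT_30 courses (60.5). Its differences in WT ran from -22.96 to -3.59 RPM, and their direction depended on the window. Against 90 s alone, TAD3 row 1 rose by 300 s in every course of both series. The WT means were 74.0 RPM at 90 s and 105.9 RPM at 300 s. At 3600 s, a time WT does not have, WT_30 courses 1 and 2 had 115 and 113 RPM for CGI121 and 77.2 and 92.2 for TAD3 row 1, below their values over 90 to 150 s (154 and 206, and 220.2 and 249). The difference between the series was not tested in either case. At 90 s the share of reads at the 0 s level was 45.8% and 18.4% for CGI121 in WT_30, and its part in the difference was not tested.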

How the results depend on the processing

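Of the counts of called introns, most stayed within 1.5 times. Factors that centre each read state left 47 introns for WT late against early unspliced (14 lower, 33 higher, the median moving from -1.52 to 0.01), 57 for prp2-1 unspliced, 5 for WT_30 late against early, and 2 and 5 for the lariat tests of WT late against early and of prp2-1. For the WT lariat test DESeq2 called 3, minimums raised 5 times 1 and the replicate block 44. For prp2-1 lariat, raised minimums left 5, no filter 0 and omitting reads past the branch point 7. For WT late against early all reads, DESeq2 called 68, spike-in scaling 275 and the replicate block 131. Leaving out 1 course gave 4 to 74 calls for prp2-1 unspliced (4 without WT course 2, 37 without course 3), 0 to 22 for prp2-1 lariat (0 without course 3, 4 without course 2, 22 without course 1) and 0 to 44 for WT late against early all reads (0 without course 1 or 2). The causes were not tested.

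Signs turned as follows. Centred factors gave 0.18, 0.70 and 0.51 for PCC1, TAD3 row 1 and TAD3 row 2 in WT late against early, and 0.00 (0.0012) for TAD3 row 2 in WT_30. The CGI121 lariat change became 0.37 without reads past the branch point. For prp2-1 all reads, raised minimums gave 0.01 for CGI121 (0.013) and PCC1 (0.014), totals without TMM 0.41 and 0.42, and TAD3 row 2 had -0.01 (-0.0057) with DESeq2, -0.037 without filter and -4.16 by spike-in. Spike-in scaling gave 1.12, 2.14 and 1.41 for CGI121, TAD3 row 1 and TAD3 row 2 in WT late against early. Leaving out 1 course gave ranges across 0 for TAD3 row 1 lariat in prp2-1 (-0.19 to 0.27), PCC1 all reads in prp2-1 (-0.25 to 0.057), TAD3 row 2 unspliced in WT_30 against WT (-0.30 to 0.021) and CGI121 all reads there (-0.055 to 0.28).

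WT_30 and WT share only a replicate number (correlations -0.0007 and 0.138 for the unspliced ratio, -0.0987 and -0.0387 for all reads). A replicate block over replicates 1 and 2 called 184 and 190 introns and turned TAD3 row 2 unspliced to 0.020. For the paired windows, the block changed no member call beyond those given above; it called 262 introns for WT and 197 for WT_30 late against early unspliced. WT_30 late against early was not refitted without a course, which leaves no residual degrees of freedom. Lifetimes from 150 s on were 483, 75.2, 68.3 and 93.7 s in WT for CGI121, PCC1, TAD3 row 1 and TAD3 row 2. Labelled prp2-1 libraries held 13 to 849 reads of PCC1 or a TAD3 row, which limits shares from single libraries.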
